A study of Mus musculus with 768 samples.

Results

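The genes described here are 8 members of the MHC class II presentation route: H2-Aa, H2-Ab1, H2-Eb1, Cd74, H2-DMa, H2-DMb1, Ciita and Ctss. They were chosen by symbol, and all 8 of 8 were found among the 51734 gene symbols of the series. The members and the gene lists used below were chosen with earlier results of these data known. Shares of all genes set beside them are therefore descriptions and no test. The study sorted single mouse endothelial cells that were negative for the leukocyte marker CD45 and positive for the endothelial marker CD31. MECA79 is an antibody to the sulphated sugars with which high endothelial venules (HEVs) capture lymphocytes. TU_HEV cells were MECA79-positive cells of PyMT tumours (plates pool3 and pool4). LN_HEV cells were MECA79-positive cells of lymph node (pool1 and pool2). TU_EC cells were MECA79-negative cells of PyMT tumours (poolA to poolD). PyMT stands for the polyoma middle T oncogene, which is used to drive mammary tumours in mice. No label gives a strain, an animal, an age, a treatment or the promoter that drives the oncogene, and each of the 8 plates held 96 wells. Each of the 3 groups was therefore treated as 1 sample, with no test between groups. Ranges over plates show how far repeat plates of a group differed.

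MHC class II molecules carry peptides from engulfed or recycled material to the cell surface and show them to CD4 T cells. Professional presenting cells such as dendritic cells, B cells and macrophages make them all the time. Endothelial cells can make them when exposed to interferon gamma, which induces the class II transactivator CIITA. CIITA binds no DNA itself: it docks on factors that sit on a conserved promoter element, the X and Y boxes, of class II genes. The alpha and beta chains assemble with the invariant chain CD74 in the endoplasmic reticulum. In endosomes cathepsins trim CD74, and the DM molecule removes its last fragment so that peptide can be loaded.

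The promoter stretches of members show the elements named above and are printed to let them be compared. RefSeq promoter windows (GRCm38.p6, 250 bases before to 50 after each start) were found for 5 of the 8 members: H2-Aa, H2-Eb1, H2-DMa, H2-DMb1 and Ctss. Capitals mark the core of the X box (TAGNNACNG), of the Y box (ATTGG, which is CCAAT on the other strand) or of an interferon response element (GAAANNGAA). Each is written 5′ to 3′ on the gene's strand, with its place before the start.
H2-Aa, chr17:34287864-34287923, minus strand, bases -100 to -41: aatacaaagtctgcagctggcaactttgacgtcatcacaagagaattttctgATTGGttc
H2-Eb1, chr17:34305767-34305826, plus strand, bases -100 to -41: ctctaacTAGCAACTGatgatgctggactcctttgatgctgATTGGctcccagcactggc
H2-DMb1, chr17:34153091-34153120, plus strand, bases -100 to -71: taccTAGTAACTGatgatgctaggctgatt
Ctss, chr3:95526726-95526785, plus strand, bases -60 to -1: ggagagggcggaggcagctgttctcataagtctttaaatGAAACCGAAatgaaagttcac

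H2-Eb1 and H2-DMb1 carried the X box core followed by ATTGG, 34 and 35 bases further on. In H2-DMb1 that ATTGG ran from base -61 to -57. From the first base of the X box core, 17 of 20 bases were identical between these genes. H2-Aa held ATTGG at bases -48 to -44 and no match to the X box letters used, which says only that these letters were not in its window. H2-DMa held neither in the first of its windows, and ATTGG at bases -198 to -194 of the second. Ctss, the lysosomal protease cathepsin S, held GAAANNGAA at bases -21 to -13 and neither box. Of 32851 promoter windows, 37.4% held CCAAT on either strand, 9.95% TAGNNACNG and 8.56% GAAANNGAA. The ordered pair of X box core and ATTGG within 50 bases was in 60 windows, 0.183%. These are letter matches and show no binding.

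H2-Aa (chr17:34282744-34287823, minus strand) and H2-Ab1 (chr17:34257689-34269419, plus strand) encode the alpha and beta chains of the I-A molecule. H2-Eb1 (chr17:34305867-34316674, plus strand) encodes the beta chain of I-E. H2-DMa (chr17:34119541-34139101, plus strand) and H2-DMb1 (chr17:34153072-34160230, plus strand) encode the chains of DM. Cd74 lies at chr18:60803848-60812652, Ciita at chr16:10480059-10528418 and Ctss at chr3:95526786-95556403, each on the plus strand. These are whole-gene positions of GENCODE mouse release M21 on GRCm38, the build named in the submitters' processing notes. The span of H2-DMa overlaps that of Brd2 on the other strand, H2-Eb1 that of the antisense gene Gm20513, and Ciita that of Dexi. The strand setting of the counting is not given in the sources used here, so reads in those overlaps cannot be assigned to a gene. H2-DMb1 has a near-identical neighbour, H2-DMb2, and the split of reads between them is uncertain. Class II genes are polymorphic between mouse strains, and whether a strain difference changed the mapping was not tested.

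The filters on reads, endothelial genes and contaminating cells kept 50 and 48 cells of the TU_HEV plates, 62 and 79 of the LN_HEV plates, and 68, 81, 82 and 72 of the TU_EC plates. Their summed counts were 146215450, 142357765 and 221773977, and the median cell held 1431390, 1056420 and 625611 counts. Levels are in CPM, the reads of a gene scaled to the total reads of the summed cells, and ratios compare such sums. Intervals are exact Poisson intervals at 95% and cover counting error only, because PCR copies of a molecule were not separable. In 11 pool1 libraries, set apart here, at least 80% of the rarer genes of a tumour-plate library (those in under 30% of cells, at 5 or more counts) recurred at 90% or more of its count. They held 16 libraries of pool3 and pool4 in this way, with a median share of 98.4%, and no pair among the cells used did so. TU_EC libraries stand in another file and another number series than the rest, so for comparisons with TU_EC the library set and the MECA79 gate cannot be told apart. For LN_HEV over TU_EC the tissue differs as well. Every plate held a single group, so plate and group cannot be told apart in any comparison. This includes TU_HEV over LN_HEV, where plate and tissue change together.

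Pecam1, which encodes CD31, was at 2622 CPM in TU_HEV, 2175 in LN_HEV and 1664 in TU_EC. The cells were sorted on CD31, and Pecam1 is among the 5 endothelial genes of the cell filter. Its level therefore does not test the endothelial label. Glycam1, a carrier of the MECA79 sugars, was at 127.7 CPM in TU_HEV, 64633 in LN_HEV and 0.198 in TU_EC. The markers of professional presenting cells were scarce, apart from the dendritic cell list genes Zbtb46 and Clec9a given below. The dendritic cell genes Itgax, Flt3 and Cd209a and the B cell gene Cd22 had no count in any cell used. A count of 0 allows up to 0.0205 CPM in TU_HEV, 0.0211 in LN_HEV and 0.0135 in TU_EC. Ptprc, which encodes CD45, was at 0 in TU_HEV and TU_EC and at 5.38 CPM in LN_HEV, in 2 cells. The macrophage list summed to 9.82 CPM in TU_HEV (plates 8.71 to 11.2), 5.87 in LN_HEV (0.792 to 9.37) and 3.35 in TU_EC (1.26 to 4.49). Of its 6 genes, 4 were at 0 in TU_HEV, 3 in LN_HEV and 2 in TU_EC. The leukocyte list of 6 genes summed to 3.36, 8.27 and 3.52 CPM, with 4, 2 and 4 genes at 0. The cells were sorted as CD45-negative, and the filter had removed cells with at least 3 genes of its leukocyte list at 10 CPM. Low levels of leukocyte genes were thus in part set by the selection. Zbtb46 of the dendritic cell list was at 52.8, 50.7 and 47.7 CPM, and Clec9a at 12.8, 8.00 and 4.37 CPM. Both had counts in cells of every group, Zbtb46 in 30 TU_HEV, 39 LN_HEV and 91 TU_EC cells and Clec9a in 14, 19 and 18. The dendritic cell list of 6 genes summed to 65.6, 59.6 and 52.0 CPM, with 4, 3 and 4 genes at 0. The B cell list of 5 genes summed to 1.49, 1.57 and 0.0225 CPM, with 2, 3 and 4 genes at 0.

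The class II chains were highest in TU_HEV. H2-Ab1 was at 463 and 396 CPM in the 2 TU_HEV plates, 83.5 and 89.9 CPM in the LN_HEV plates, and 198.8, 196.4, 163.9 and 156.3 CPM in the TU_EC plates. The ranges of the 3 groups did not overlap. Here and for the genes below, the share of all genes whose plates separate in this way is not given. Such separation is therefore only a description of these plates. H2-Aa was at 285.2 and 247.5 CPM in TU_HEV plates, 76.9 and 99.3 CPM in LN_HEV plates, and 71.0, 96.1, 66.2 and 50.8 CPM in TU_EC plates. For H2-Aa both TU_HEV plates lay above all others, and LN_HEV and TU_EC plates overlapped. Over all cells, H2-Ab1 was 4.87 times as high in TU_HEV as in LN_HEV (interval 4.78 to 4.97) and 2.37 times as high as in TU_EC (2.35 to 2.41). H2-Aa was 2.93 times as high in TU_HEV as in LN_HEV (2.87 to 2.99) and 3.67 times as high as in TU_EC (3.60 to 3.74). The ratio between the chains differed from group to group. Reads of H2-Ab1 per read of H2-Aa were 1.61 in TU_HEV (1.62 and 1.60 in its plates), 0.968 in LN_HEV (1.09 and 0.905) and 2.49 in TU_EC (2.04 to 3.08).

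**Figure D1:**
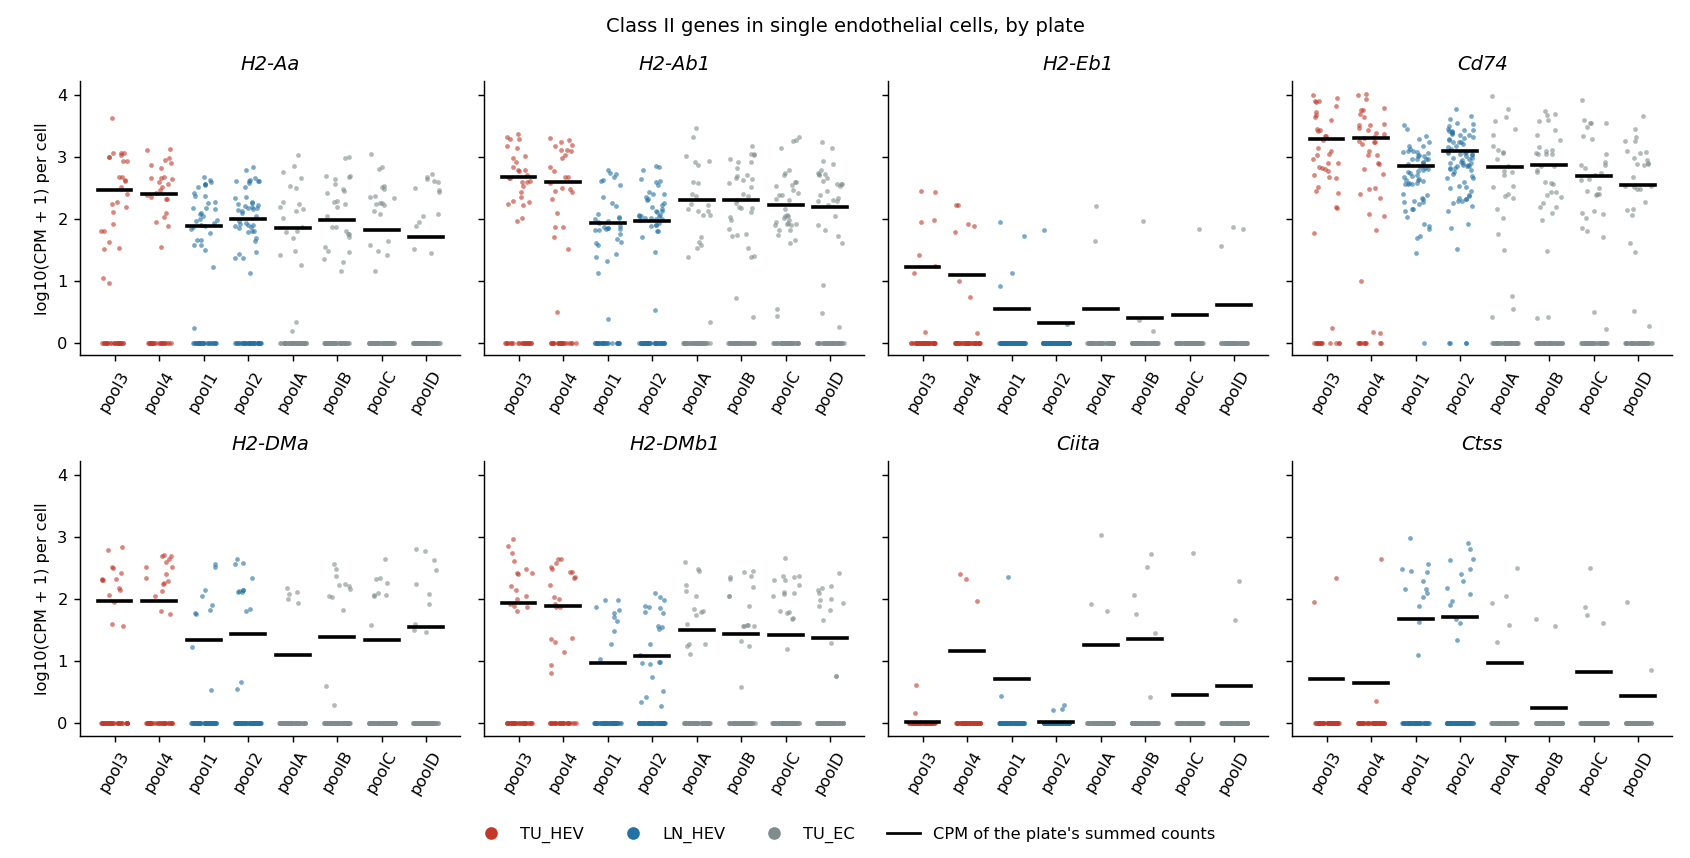
Each point is 1 cell, placed by its plate on the x axis and by log10(CPM + 1) on the y axis, with 1 panel per gene; black lines give the CPM of the summed counts of each plate. Cd74 is present in nearly all LN_HEV cells, at 701 and 1239 CPM per plate, whereas the tumour plates hold both cells at 0 and the cells with the highest levels.

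H2-Eb1 was the scarcest of the chains. It was at 15.6 and 11.3 CPM in TU_HEV plates, 2.50 and 1.13 CPM in LN_HEV plates, and 2.50, 1.56, 1.85 and 3.07 CPM in TU_EC plates. Both TU_HEV plates lay above all others. The ratios were 7.83 (6.85 to 9.00) for TU_HEV over LN_HEV and 6.01 (5.44 to 6.66) for TU_HEV over TU_EC. Per kilobase of annotated exons, the level of H2-Ab1 was 24.4 times that of H2-Eb1 in TU_HEV, 39.2 times in LN_HEV and 61.7 times in TU_EC. At 10 CPM or more, H2-Eb1 was found in 12 TU_HEV, 4 LN_HEV and 7 TU_EC cells. In pool2, poolB and poolC 1 cell held nearly all of its reads, so the LN_HEV and TU_EC values rest on few cells. In cells with no immune marker at 10 CPM the ratio of TU_HEV to LN_HEV was 3.78. H2-Ea-ps, annotated as a pseudogene of the matching I-E alpha chain, was at 10.2 CPM in TU_HEV, 0 in LN_HEV and 1.57 CPM in TU_EC. Its counts came from 5 cells, 0 cells and 7 cells.

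Cd74, the invariant chain, had the highest level of the 8 members in every group. It was at 1926 and 2039 CPM in TU_HEV plates, 701 and 1239 CPM in LN_HEV plates, and 681, 722, 487 and 353.04 CPM in TU_EC plates. TU_HEV plates lay above all others, while LN_HEV and TU_EC plates overlapped. Cd74 in TU_HEV was 1.95 times the LN_HEV level (1.94 to 1.96) and 3.52 times the TU_EC level (3.50 to 3.54). The range over the 4 pairs of TU_HEV and LN_HEV plates was 0.64 to 1.54 on the log2 scale, so plates differed far more than the counting interval shows. The balance of chains to invariant chain also differed. Reads of H2-Aa and H2-Ab1 together per read of Cd74 were 0.347 in TU_HEV (0.388 and 0.315 in its plates), 0.174 in LN_HEV (0.229 and 0.153) and 0.444 in TU_EC (0.396 to 0.586).

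The DM genes followed the chains in TU_HEV. H2-DMa was at 91.5 and 91.9 CPM in TU_HEV plates, 21.3 and 26.2 CPM in LN_HEV plates, and 11.3, 23.9, 21.1 and 34.8 CPM in TU_EC plates. H2-DMb1 was at 85.0 and 75.6 CPM in TU_HEV plates, 8.38 and 11.0 CPM in LN_HEV plates, and 30.3, 26.7, 25.5 and 22.7 CPM in TU_EC plates. For H2-DMb1 the 3 groups did not overlap, with LN_HEV lowest. For H2-DMa only TU_HEV stood apart. H2-DMa was 3.79 times as high in TU_HEV as in LN_HEV (3.65 to 3.94) and 4.02 times as high as in TU_EC (3.90 to 4.16). H2-DMb1 was 8.05 times as high in TU_HEV as in LN_HEV (7.61 to 8.51) and 3.03 times as high as in TU_EC (2.94 to 3.13). Its neighbour H2-DMb2 was at 74.3 CPM in TU_HEV, 13.8 CPM in LN_HEV and 18.1 CPM in TU_EC. The H2-DMb2 ratios were 5.37 for TU_HEV over LN_HEV and 4.11 for TU_HEV over TU_EC.

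Ciita, the transactivator, was carried by few cells. It was at 0.0465 and 13.4 CPM in TU_HEV plates, 4.08 and 0.0356 CPM in LN_HEV plates, and 17.0, 22.1, 1.83 and 2.99 CPM in TU_EC plates. Plates of 1 group differed more than the groups did. At 10 CPM or more, it was found in 3 TU_HEV cells, 1 LN_HEV cell and 11 TU_EC cells. The cell with the most Ciita counts held 51.5% of the TU_HEV total, 98.3% of the LN_HEV total and 32.1% of the TU_EC total. The sums gave a ratio of 4.46 for TU_HEV over LN_HEV and 0.675 for TU_HEV over TU_EC. On the log2 scale the TU_HEV to LN_HEV value was 2.16, and 7.03 without the cell with the most counts in each group. Without pool4 it was reversed, at -5.18, so no direction can be given for Ciita.

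Ctss had another order. This protease, which trims the invariant chain in lysosomes, was at 4.17 and 3.40 CPM in TU_HEV plates and 46.3 and 50.1 CPM in LN_HEV plates. In TU_EC plates it was at 8.26, 0.786, 5.62 and 1.71 CPM. Both LN_HEV plates lay above all tumour plates. The LN_HEV level was 12.1 times that of TU_EC (11.3 to 13.0), and the TU_HEV level was 0.0771 of that of LN_HEV (0.0705 to 0.0841). At 10 CPM or more it was found in 3 TU_HEV cells, 27 LN_HEV cells and 12 TU_EC cells. Of the 27 LN_HEV cells, 2 also had a gene of the leukocyte filter list at that level. The TU_HEV and TU_EC sums of 3.74 and 4.00 CPM gave a ratio of 0.936 (0.840 to 1.04), and 1 cell held 50.6% of the TU_HEV counts. With every cell given equal weight, the ratio of TU_HEV to LN_HEV was 0.162 and that of TU_HEV to TU_EC was 1.89, which turns the direction of the second.

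Across all 8 members, the median log2 ratio was 2.04 for TU_HEV over LN_HEV, with 1.66 to 2.00 over pairs of plates. At a 2-fold difference, 6 members were higher in TU_HEV and Ctss was lower. Among the 14122 genes at 1 CPM or more in either group, 27.2% were that much higher and 15.1% that much lower. In every pair of plates, 5 members were 2-fold higher (11.4% of genes were) and Ctss was 2-fold lower (6.74% of genes were). Ciita passed the 2-fold rule over all cells but not in every pair of plates, and Cd74, just under 2-fold, passed neither. Genes at 20 CPM or more had a median log2 ratio of 0.32 in this comparison, and the members' median was 1.72 above it. With size factors in place of totals, which set the median of these genes to 0.03, the members' median was 1.75. With the 11 pool1 libraries kept, the ratios of TU_HEV to LN_HEV were 2.88 for H2-Ab1, 2.84 for H2-Eb1 and 2.38 for H2-DMa, each moved by over 1.5 times and still over 2-fold.

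**Figure D2:**
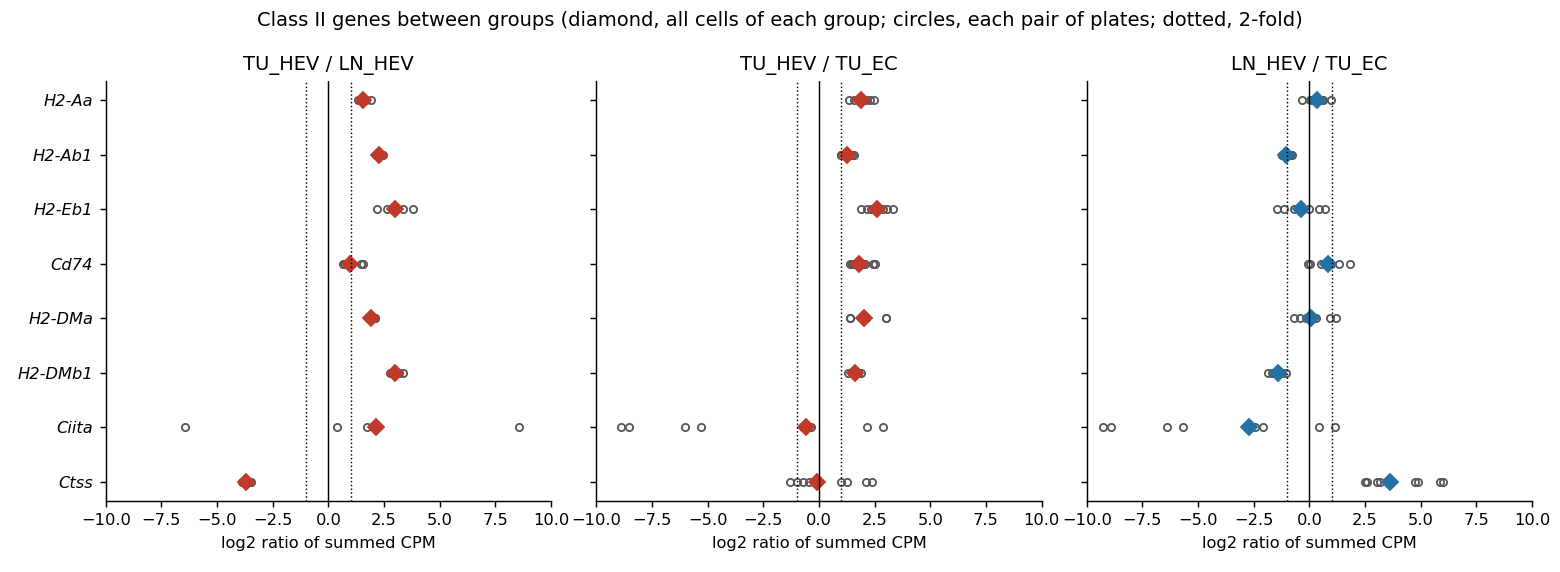
The log2 ratio of summed CPM is on the x axis and the 8 members run down the page, with a panel for each comparison; diamonds use all cells of a group, circles each pair of plates, and dotted lines mark 2-fold. H2-Aa, H2-Ab1, H2-Eb1, Cd74, H2-DMa and H2-DMb1 sit right of 0 in every plate pair of both TU_HEV panels, while the circles of Ciita spread over both sides.

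For TU_HEV over TU_EC the members' median log2 ratio was 1.71, with 1.45 to 1.98 over pairs of plates, against 0.42 for genes at 20 CPM or more. Here 6 members were at least 2-fold higher, against 25.7% of 13979 genes. None was 2-fold lower, against 13.1%. In every pair of plates 5 were higher (6.09% of genes) and 0 lower (3.24%). H2-Ab1 missed the stricter rule by 1 of 8 plate pairs, and its ratio was 1.76 with size factors 1.93 with totals that leave out ribosomal RNA and mitochondrial genes, and 1.85 in cells with no immune marker at 10 CPM. Those features took 10.8% of TU_HEV counts and 27.6% of TU_EC counts.

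For LN_HEV over TU_EC the median log2 ratio was -0.15, within the range of its plate pairs (-0.60 to 0.33). Ctss was at least 2-fold higher (21.8% of 13974 genes were), and H2-Ab1, H2-DMb1 and Ciita were at least 2-fold lower (20.7% of genes). In every pair of plates, Ctss was higher (7.40% of genes) and H2-DMb1 lower (8.43%). With 8 genes, such counts are too few to set against these shares. The median of -0.15 does not show that the groups were alike, because members went in both directions. Cd74 was also found in 96.4% of LN_HEV and 37.3% of TU_EC cells, as given below. For single genes, the level of H2-Ab1 in LN_HEV was 0.487 of that in TU_EC (0.478 to 0.497), and that of H2-DMb1 was 0.377 (0.355 to 0.399). H2-Ab1 was lower in LN_HEV in all 8 plate pairs, though under 2-fold in 4 of them. It also came under 2-fold in 8 alternatives, at 0.502 to 0.583 of the TU_EC level in 7 of them. In the other, with the 11 pool1 libraries kept, it was at 0.823, H2-DMb1 came under 2-fold at 0.553, and H2-Eb1, at 0.768 without them, turned to 2.12.

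How many cells carried a member, and how much a carrying cell held, differed between groups in separate ways. To compare shares, each cell was thinned to 100000 counts, which left out 0 TU_HEV, 1 LN_HEV and 3 TU_EC cells. Cd74 was then found in 73.5% of 98 TU_HEV cells (exact interval 63.6% to 81.9%), 96.4% of 140 LN_HEV cells (91.9% to 98.8%) and 37.3% of 300 TU_EC cells (31.8% to 43.1%). Unthinned, the shares were 76.5%, 96.5% and 39.6%. Plates of a group lay close together, at 72.0% and 75.0% in TU_HEV, 98.4% and 94.9% in LN_HEV, and 35.8% to 40.5% in TU_EC. Among cells at 10 CPM or more, the median Cd74 level was 1701 CPM in TU_HEV (quartiles 605 and 3623), 741 CPM in LN_HEV (330.96 and 1317) and 648 CPM in TU_EC (243.8 and 1442). Thus more LN_HEV than TU_HEV cells had Cd74, and those TU_HEV cells that had it held more. Fewer cells with a gene and less RNA per cell both lower a summed level. Intervals of shares cover the sampling of cells only, and test no difference between groups.

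H2-Ab1 was found in 54.1% of TU_HEV cells (43.7% to 64.2%), 51.4% of LN_HEV cells (42.8% to 60.0%) and 37.7% of TU_EC cells (32.2% to 43.4%). Unthinned, these shares were 55.1%, 52.5% and 40.6%. Among cells at 10 CPM or more the median was 478 CPM in TU_HEV, 106.6 CPM in LN_HEV and 233.9 CPM in TU_EC. H2-Aa was found in 51.0% of TU_HEV cells (40.7% to 61.3%), 53.6% of LN_HEV cells (45.0% to 62.0%) and 26.3% of TU_EC cells (21.4% to 31.7%). Its medians in cells at 10 CPM or more were 368.6 CPM in TU_HEV, 128.2 CPM in LN_HEV and 170.2 CPM in TU_EC. For both chains the median level in carrying cells was higher in TU_HEV than in LN_HEV. The cell with the highest H2-Aa reached 4220 CPM in TU_HEV, 679 CPM in LN_HEV and 1117 CPM in TU_EC.

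**Figure D3:**
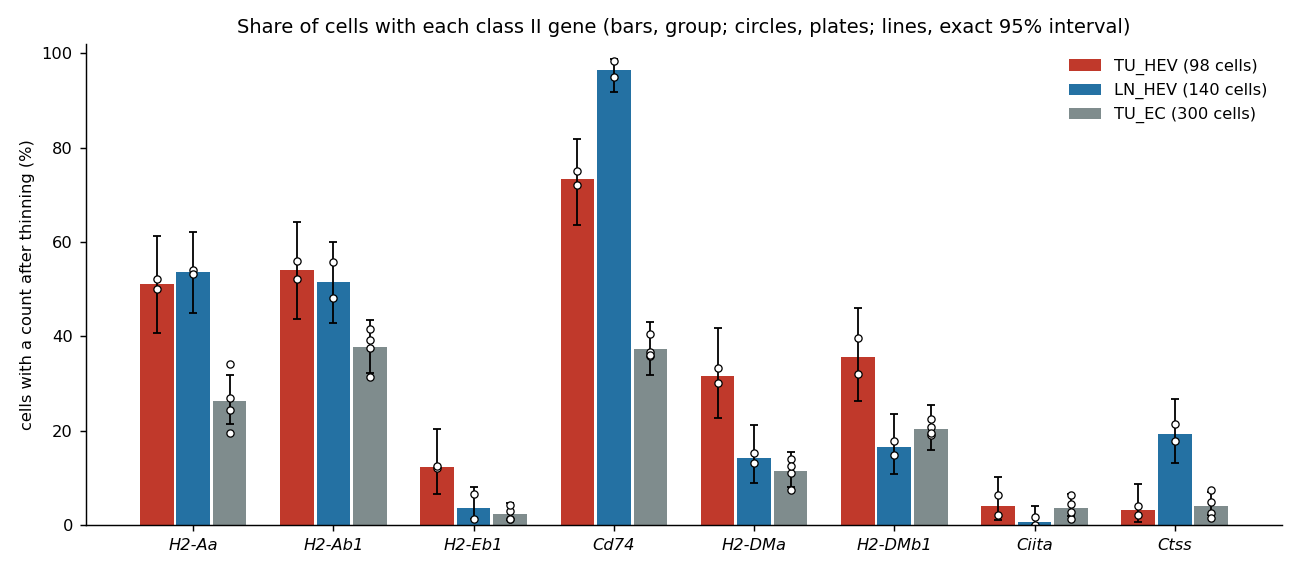
Bars give the percent of cells with at least 1 count of each gene after thinning to 100000 counts (y axis) in 98 TU_HEV, 140 LN_HEV and 300 TU_EC cells; lines are exact 95% intervals and circles are plates. Cd74 is found in 73.5%, 96.4% and 37.3% of cells, and Ctss in 3.06%, 19.3% and 4.00%.

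H2-DMa was found in 31.6% of TU_HEV cells (22.6% to 41.8%), 14.3% of LN_HEV cells (8.95% to 21.2%) and 11.3% of TU_EC cells (7.98% to 15.5%). For H2-DMb1 the shares were 35.7% in TU_HEV (26.3% to 46.0%), 16.4% in LN_HEV (10.7% to 23.6%) and 20.3% in TU_EC (15.9% to 25.3%). H2-Eb1 was found in 12.2%, 3.57% and 2.33% of cells, with 5 LN_HEV and 7 TU_EC cells behind the smaller shares. Ctss was found in 3 TU_HEV cells (3.06%), 27 LN_HEV cells (19.3%, 13.1% to 26.8%) and 12 TU_EC cells (4.00%). B2m, the light chain of class I, was found in 98 of 98, 140 of 140 and 99.3% of 300 cells, which shows the same measure for a gene found nearly everywhere.

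The 4 core genes H2-Aa, H2-Ab1, H2-Eb1 and Cd74 were rarely all seen in 1 cell. All 4 were found in 9 TU_HEV cells (9.18%, 4.29% to 16.7%), 4 LN_HEV cells (2.86%, 0.784% to 7.15%) and 6 TU_EC cells (2.00%, 0.737% to 4.30%). H2-Eb1 set this limit. Cd74 with both I-A chains was found in 40.8% of TU_HEV cells (31.0% to 51.2%), 35.7% of LN_HEV cells (27.8% to 44.2%) and 22.0% of TU_EC cells (17.4% to 27.1%). Cd74 with neither I-A chain was found in 12.2% of TU_HEV cells, 27.9% of LN_HEV cells and 6.33% of TU_EC cells. None of the 4 genes was found in 22 of 98 TU_HEV cells, 4 of 140 LN_HEV cells and 52.7% of 300 TU_EC cells. Of the other TU_EC cells, 45 held 1 of the genes, 31 held 2, 60 held 3 and 6 held all 4. LN_HEV cells mostly held 1 (39 cells), 2 (47 cells) or 3 (46 cells). In TU_HEV, 14 cells held 1, 22 held 2 and 31 held 3.

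An I-A chain without Cd74 was found in 3 TU_HEV, 1 LN_HEV and 30 TU_EC cells. Of TU_EC cells without Cd74, 13.3% (8.79% to 19.0%) had H2-Ab1, against 78.6% (69.8% to 85.8%) of those with it. In TU_HEV these values were 2 of 26 cells without Cd74 and 70.8% (58.9% to 81.0%) of those with it. DM was found mainly beside H2-Ab1. H2-DMb1 was in 56.6% of TU_HEV cells with H2-Ab1 (42.3% to 70.2%) and 11.1% of those without (3.71% to 24.1%). In LN_HEV it was in 29.2% of cells with H2-Ab1 and 2.94% of those without, and in TU_EC in 46.9% and 4.28%. The I-A chains, Cd74 and both DM genes were found together in 17 TU_HEV cells (17.3%, 10.4% to 26.3%), 6 LN_HEV cells (4.29%, 1.59% to 9.09%) and 20 TU_EC cells (6.67%, 4.12% to 10.1%). Ciita was found in 4 TU_HEV, 1 LN_HEV and 11 TU_EC cells. An I-A chain was also found in 4, 1 and 9 of these.

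Most members varied together across cells of a plate, most tightly in the tumour groups. Correlations are Pearson's r of log2(CPM + 10) in thinned cells, taken within each plate and averaged, over 98 TU_HEV, 140 LN_HEV and 300 TU_EC cells. Cells of a plate share its amplification and handling, and r is given as a description. Cd74 and H2-Aa had an r of 0.76 in TU_HEV, 0.60 in LN_HEV and 0.80 in TU_EC. For H2-Aa and H2-Ab1 it was 0.69 in TU_HEV (plates 0.65 and 0.73), 0.47 in LN_HEV (0.46 and 0.49) and 0.75 in TU_EC (0.73 to 0.80). For Cd74 and H2-Ab1 it was 0.73, 0.46 and 0.77. H2-DMb1 and H2-Ab1 reached 0.49, 0.39 and 0.60. H2-DMa and H2-Aa had 0.47 in TU_HEV and 0.58 in TU_EC, but -0.08 and 0.38 in the LN_HEV plates. H2-Eb1, Ciita and Ctss were less tied to the others. H2-Eb1 had an r with H2-Aa of 0.26 in TU_HEV, 0.08 in LN_HEV and 0.21 in TU_EC, and with Cd74 of 0.19, 0.11 and 0.24. Ciita reached 0.28 with H2-Aa in TU_HEV and 0.21 in TU_EC, and gave no mean in LN_HEV because pool2 had no thinned count. Ctss and H2-Aa had -0.01 in TU_HEV, 0.11 in LN_HEV and 0.29 in TU_EC.

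**Figure D4:**
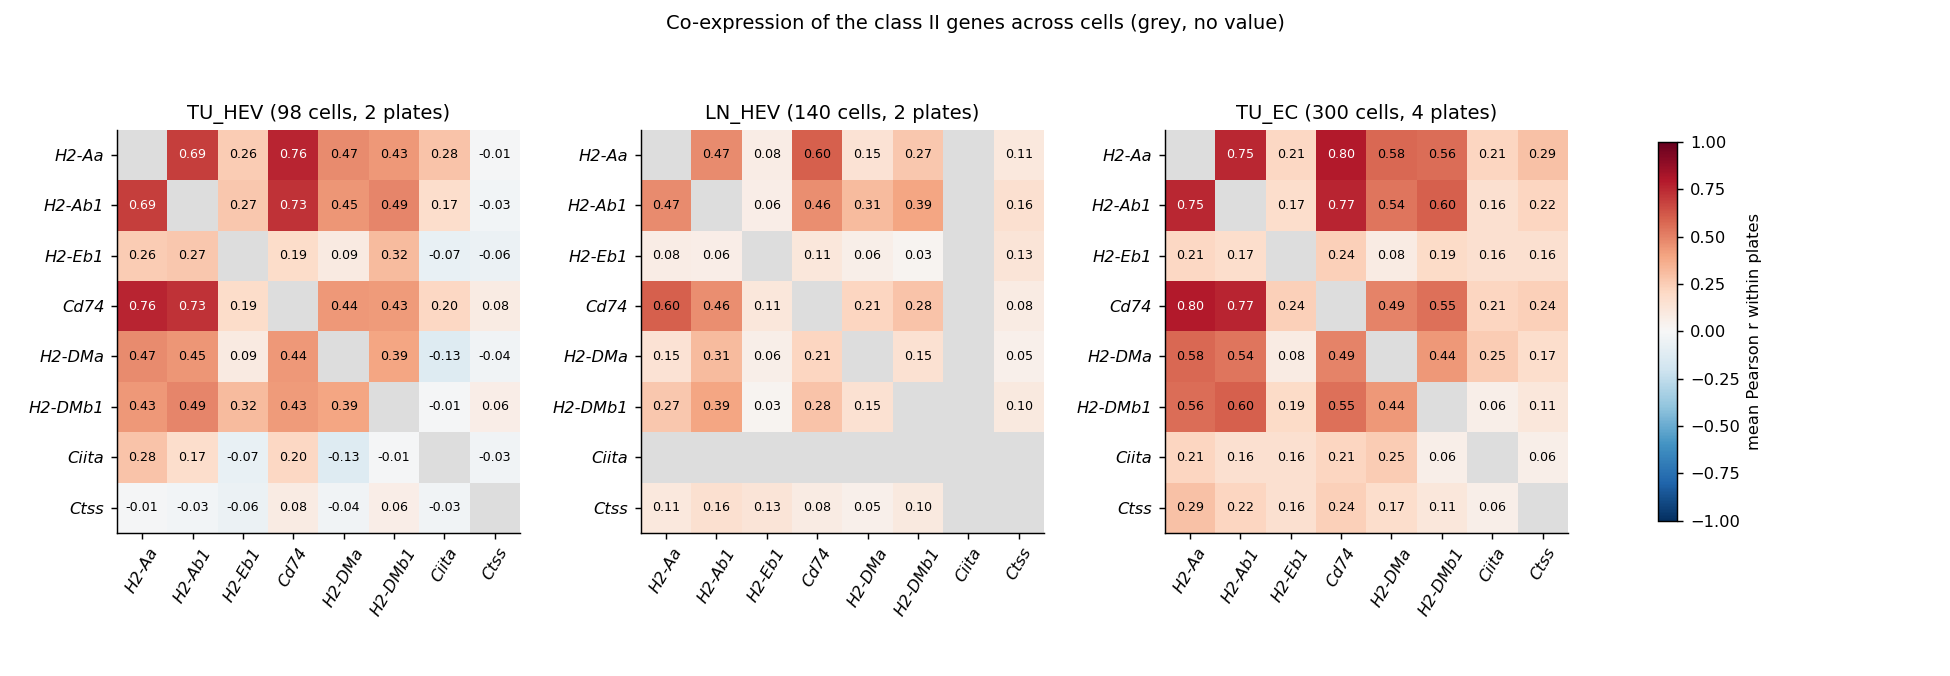
Each square gives the mean within-plate Pearson r of 2 members (rows and columns) across thinned cells, by colour and number, in TU_HEV, LN_HEV and TU_EC; grey marks no value. The block of H2-Aa, H2-Ab1 and Cd74 has 0.69 to 0.76 in TU_HEV, 0.46 to 0.60 in LN_HEV and 0.75 to 0.80 in TU_EC, and the rows of H2-Eb1, Ciita and Ctss are paler.

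The genes whose levels followed the summed core genes most closely are given for each group. They were the first 6 by mean r among genes with a thinned count in at least 20% of cells of every plate. In TU_HEV they were Gbp6 (0.48), Gbp10 (0.44), H2-DMb2 (0.43), Gbp11 (0.35), Serpina3f (0.34) and Cxcl9 (0.33). The Gbp genes encode guanylate-binding proteins, interferon-induced GTPases, and Cxcl9 encodes a chemokine that draws T cells through CXCR3. Among the 4332 genes ranked there, the 99th percentile of r was 0.22. In LN_HEV they were B2m (0.40), Ubl5 (0.38), P4hb (0.38), Shisa5 (0.36), Hnrnpc (0.35) and H2-K1 (0.35), with a 99th percentile of 0.26 among 4466 genes. P4hb encodes a protein disulphide isomerase and Hnrnpc an RNA-binding protein. In LN_HEV the core sum also had an r of 0.30 with the number of genes found in a cell and -0.40 with the ribosomal RNA feature CT010467.1. Their part in the LN_HEV list was not tested. In TU_EC the genes were H2-Q4 (0.47), H2-T-ps (0.46), B2m (0.44), H2-K1 (0.44), H2-Q6 (0.43) and Ly6a (0.41), with a 99th percentile of 0.23 among 3614 genes. Of these, 5 are class I genes, B2m or a class I pseudogene, whose reads may be shared between near-identical copies, and Ly6a encodes the surface antigen Sca-1. H2-DMb2 had an r of 0.58 in TU_EC, above H2-Q4, and 0.32 in LN_HEV. It was not ranked there, because it was found in under 20% of cells in poolB (19.0%), poolD (16.7%) and pool1 (16.4%).

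The summed class I list (B2m, H2-K1, H2-D1 and 6 genes of peptide supply and control) had an r with the core of 0.08 in TU_HEV (plates -0.04 and 0.21), 0.38 in LN_HEV and 0.47 in TU_EC (0.43 to 0.52). Its own median log2 ratio was 0.49 for TU_HEV over LN_HEV and 1.44 for TU_HEV over TU_EC. The list of the interferon gamma route had an r with the core of 0.26 in TU_HEV, 0.08 in LN_HEV and 0.26 in TU_EC. The HEV marker list had a mean r with the core of -0.03 in TU_HEV (plates -0.07 and 0.02). It was 0.08 in LN_HEV (-0.05 and 0.22) and -0.01 in TU_EC (-0.15 to 0.19). The sum of that list rested on few genes. Glycam1 gave 64633 of 89144 CPM in LN_HEV, and Ccl21a 1126 of 1144 CPM in TU_EC. Single genes differed, with Glycam1 at 0.12 and Chst4 at -0.16 in TU_HEV, and Fut7 at 0.21 and Chst4 at -0.05 in LN_HEV. In TU_EC the lymphatic list had an r of 0.15 (plates 0.04 to 0.28). That list summed to 34.3 CPM in TU_HEV, 17.5 CPM in LN_HEV and 499.7 CPM in TU_EC, and its part in the TU_EC values was not tested. The log2 total count of a cell had an r with the core of -0.02, 0.03 and 0.05.

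Of 10 genes of the interferon gamma route, 7 were at least 2-fold higher in TU_HEV than in LN_HEV and none at least 2-fold lower, against 27.2% and 15.1% of all genes, with a median log2 ratio of 2.27. Irf1, a transcription factor that acts on the Ciita promoter, was at 806 CPM in TU_HEV, 123.2 CPM in LN_HEV and 214.6 CPM in TU_EC. Gbp2, an interferon-induced GTPase, was at 796, 51.9 and 374.6 CPM. The kinase gene Jak2 was at 127.3, 23.4 and 30.6 CPM, and Socs1, which encodes a brake on this signal, at 34.3, 4.04 and 10.5 CPM. The receptor chain genes differed: Ifngr1 was at 599.9, 314.4 and 169.4 CPM, and Ifngr2 at 68.9, 99.5 and 43.1 CPM. The kinase gene Jak1 was at 594 CPM in TU_HEV, 572 CPM in LN_HEV and 216.7 CPM in TU_EC. Over TU_EC, 7 of the 10 were at least 2-fold higher in TU_HEV, against 25.7% of all genes, with a median of 1.43. Both comparisons share the TU_HEV cells. The 7 factors listed that bind the X and Y boxes had a median of -0.14 for TU_HEV over LN_HEV and -0.05 for TU_HEV over TU_EC. Of them, 1 was at least 2-fold higher in TU_HEV than in LN_HEV and 1 at least 2-fold lower, against 27.2% and 15.1% of all genes. The lower was Rfx5, at 5.37 CPM in TU_HEV, 16.3 in LN_HEV and 5.57 in TU_EC. The higher was Nfya, at 3.73, 0.513 and 6.78 CPM. Rfxank was at 27.9, 25.3 and 11.7 CPM.

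The rest of the class II route held genes on both sides. Of 17 genes listed, 14 had at least 3 counts in TU_HEV or LN_HEV. Of these, 4 were at least 2-fold higher in TU_HEV and 4 at least 2-fold lower, with a median log2 ratio of 0.08. The share higher is near the 27.2% of all genes, and 15.1% of all genes were lower. The endosomal proteases Ctsb (cathepsin B) and Lgmn (legumain) were higher, at 1101 CPM in TU_HEV against 270.2 CPM in LN_HEV and at 538 CPM against 153.1 CPM. The protease Ctsl (cathepsin L) was at 1322 CPM in TU_HEV, 2976 CPM in LN_HEV and 208.4 CPM in TU_EC. Its LN_HEV level was 14.3 times that of TU_EC (14.1 to 14.4). H2-Ob, the beta chain of the DM inhibitor DO, was at 0.144 CPM in TU_HEV, 15.1 CPM in LN_HEV and 0 in TU_EC, with counts in 1, 18 and 0 cells. Its LN_HEV level was at least 1118-fold higher than that of TU_EC, taking 3 counts over the group as the limit of a 0. The alpha chain gene of DO, H2-Oa, had no count in any cell used. Over TU_EC, 6 of 13 genes were at least 2-fold higher in TU_HEV (25.7% of all genes were) and 1, Ctsh, at least 2-fold lower (13.1%), with a median of 0.96.

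**Figure D5:**
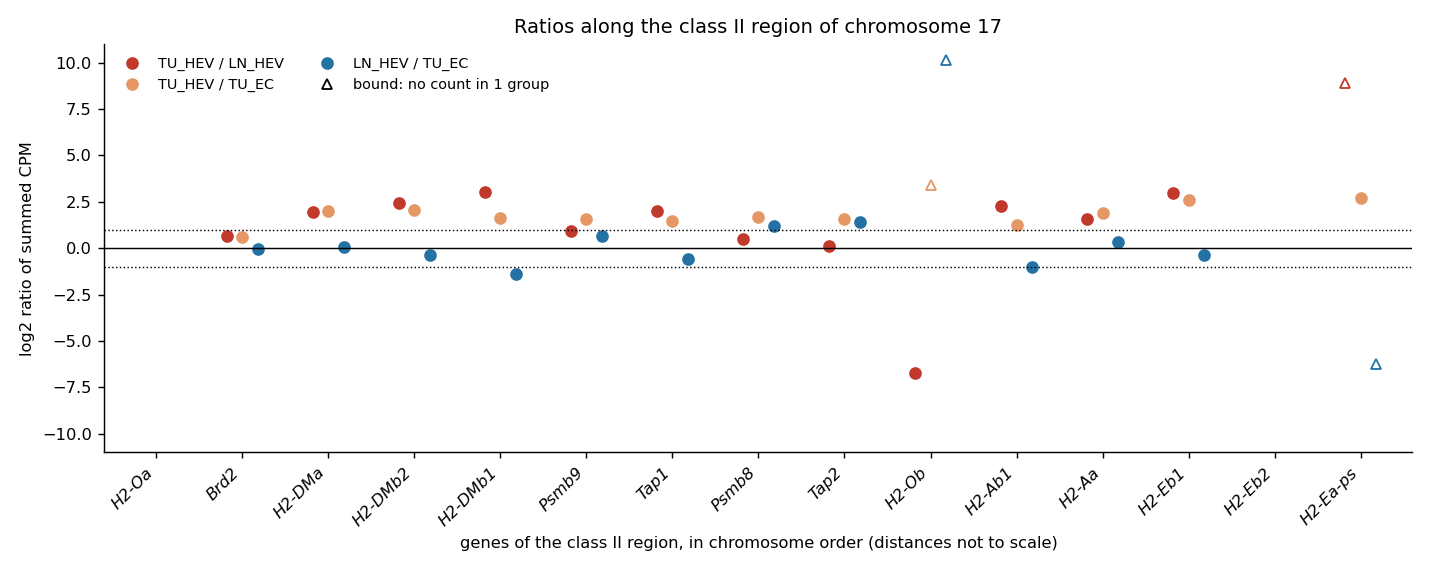
Genes of the class II region of chromosome 17 stand in chromosome order on the x axis, with the log2 ratio of summed CPM on the y axis; dotted lines mark 2-fold and open triangles are bounds where 1 group had no count. The DM, I-A and I-E genes that had counts lie above the upper dotted line in both TU_HEV comparisons, while H2-Ob between them lies at -6.72 for TU_HEV over LN_HEV.

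The members on chromosome 17 lie among class I genes of peptide supply. Psmb8, Psmb9, Tap1 and Tap2 stand between H2-DMb1 and H2-Ob. Their log2 ratios for TU_HEV over LN_HEV were 0.49, 0.90, 2.00 and 0.13. For the members the values were 3.01 for H2-DMb1, 2.97 for H2-Eb1, 2.28 for H2-Ab1, 1.92 for H2-DMa and 1.55 for H2-Aa, so Tap1 lay within their range and the other 3 below it. For TU_HEV over TU_EC the same 4 genes were at 1.70, 1.57, 1.44 and 1.55, close to H2-DMb1. Brd2, whose span overlaps H2-DMa, was at 146.5 CPM in TU_HEV, 93.1 CPM in LN_HEV and 95.5 CPM in TU_EC.

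Of 8 genes listed for T cell costimulation, 5 had no count in TU_HEV, 6 in LN_HEV and 5 in TU_EC. Whether the others stood in the same cells as class II was not tested. Cd80 had 1 count in TU_HEV and none elsewhere, and Cd86, Tnfsf4 and Tnfsf9 had none in any group. Icosl had counts only in TU_EC, at 2.10 CPM in 8 cells. Pdcd1lg2 had counts only in LN_HEV, at 6.31 CPM in 7 cells. Cd40, the receptor through which T cells activate presenting cells, was at 14.4 CPM in TU_HEV, 0 in LN_HEV and 53.1 CPM in TU_EC. It had counts in 8 TU_HEV and 96 TU_EC cells. Cd274, which encodes the inhibitory ligand PD-L1, was at 74.2 CPM in TU_HEV, 43.1 CPM in LN_HEV and 24.7 CPM in TU_EC. Its plates were at 57.2 and 87.7 CPM in TU_HEV, and 48.4 and 39.5 CPM in LN_HEV. In TU_EC they were at 35.6, 42.0, 18.6 and 0.0197 CPM, so LN_HEV and TU_EC plates overlapped. Counts of Cd274 came from 32 TU_HEV, 42 LN_HEV and 23 TU_EC cells.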

How the data were processed

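Whole-transcript Smart-seq2 libraries of 768 sorted cells were analysed from the deposited raw counts of reads per gene, per the labels' protocols without molecular identifiers. The authors aligned and counted the reads; the submitters' processing notes list mm10 (GRCm38) as the build, and Subread 1.4.6-p2, the aligner STAR 2.4.1b and FastQC 0.11.4 as tools. The strand setting is not given in the sources used here. Repeated symbols among 51826 features were summed. Cells needed 50000 counts, 1000 genes, at most 30% mitochondrial counts, 2 of 5 endothelial genes at 10 CPM and under 3 genes of any contaminant list at 10 CPM; 11 pool1 libraries were left out. No label names an animal, so nothing was tested between groups and values describe these cells. Levels, exact Poisson and Clopper-Pearson 95% intervals, shares at 100000 thinned counts (seed 1), ratios with 3 counts as the limit of a 0, and within-plate correlations were computed with Python 3.11.15, numpy 2.4.6, pandas 2.3.3 and scipy 1.17.1, and tested on simulated data. A 2-fold difference was the size rule. Named genes were the members, the genes of the lists and the first 6 correlates per group; gene models with no proper symbol and ribosomal, mitochondrial and immunoglobulin genes were passed over. The members and lists were chosen with earlier results of these data known. Other scalings, cell filters, thresholds and left-out plates were tried as alternatives.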

Additional observations from a re-analysis of the deposited data

Results flagged for a closer look

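Some cells passed the read filters and failed the filters on endothelial genes or contaminating cells. They lie outside all comparisons above, and their class II counts were above the limit that a count of 0 allows. In 3 such cells of TU_HEV the summed core genes H2-Aa, H2-Ab1, H2-Eb1 and Cd74 were at 164.3 CPM, against 2691 CPM in the TU_HEV cells used. In 7 such cells of LN_HEV, of which 6 had at least 3 leukocyte genes, they were at 1381 CPM, against 1199 CPM in the LN_HEV cells used. In 6 such cells of TU_EC they were at 661 CPM, against 818 CPM in the TU_EC cells used. Under 2 endothelial genes at 10 CPM were found in 3 of these cells of TU_HEV, 1 of LN_HEV and 4 of TU_EC. Which cell types the cells left out are was not tested.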

How the results depend on the processing

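The members' median log2 ratio for TU_HEV over LN_HEV (2.04) moved by more than the spread of plate pairs with size factors (1.75), equal weight per cell (1.77), thinned sums (1.63), the 11 pool1 libraries kept (1.29) and cells with no immune marker at 10 CPM (1.84), and lay between 1.79 and 2.05 without 1 plate. For TU_HEV over TU_EC (1.71) it moved with size factors (1.27) and with totals that leave out ribosomal RNA and mitochondrial genes (1.41), and lay between 1.60 and 1.79 without 1 plate. For LN_HEV over TU_EC (-0.15) it moved with the 11 libraries kept (0.65) and with no immune marker at 10 CPM (0.15), and lay between -0.38 and 0.00211 without 1 plate. The immune marker rule kept 53 TU_HEV and 85 LN_HEV cells. Without Zbtb46 and Clec9a, a choice made after seeing the data, it kept 85 TU_HEV and 280 TU_EC cells, and the medians were 1.92, 1.63 and -0.02. The correlation of H2-Ab1 with Cd74 in TU_HEV (0.73) was 0.69 on log2(CPM + 1). The shares of cells with all 4 core genes stayed within their exact intervals under every alternative run. Some single members changed direction. Ciita for TU_HEV over LN_HEV reversed without pool4, and lay between -5.18 and 7.72 without 1 plate. As given above, Ctss for TU_HEV over TU_EC turned with equal weight per cell. H2-Eb1 for LN_HEV over TU_EC turned with the 11 libraries kept. No paired analysis was possible because no label pairs plates or cells across groups. The values of Ciita, H2-Eb1 and Ctss rest on few cells in at least 1 group. Ctss was found in 27 LN_HEV cells both at 100000 thinned counts and at full depth, and Ciita in 11 and 12 TU_EC cells.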
